A study of Mus musculus with 6 samples.

Results

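The genes that let calcium into vascular smooth muscle, release it from internal stores and remove it again were compared between the aorta of mice deficient in the endothelial nitric oxide synthase, eNOS (eNOS-KO), and the aorta of age-matched wild-type animals (WT). The group was fixed by name: Cacna1c, Cacna1h, Cacnb2 and Cacnb3 for voltage-gated entry, Itpr1 and Ryr2 for release, and Atp2a2, Atp2b1, Atp2b4 and Slc8a1 for pumping and exchange. Of these 10 genes, 8 had a probe set annotated to that gene alone and were measured, out of 22184 genes named on the array. Cacnb3 and Itpr1 had no such probe set in the annotation used and were not analysed here. Total RNA of 3 eNOS-KO samples (11, 15 and 19) and 3 WT samples (2, 3 and 5), called by their title numbers, was read on 1 Affymetrix array per sample. Values are log2 signals after robust multi-array averaging (RMA), so a difference of 1 is a doubling. The labels state no eNOS allele, strain, sex or pooling of animals, and p-values therefore measure only the spread between these samples. That spread may be partly technical and includes the differences in tissue content given below.

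In vascular smooth muscle, depolarisation opens L-type calcium channels, and the calcium that enters, together with calcium released from the sarcoplasmic reticulum through inositol trisphosphate and ryanodine receptors, binds calmodulin and starts contraction. Relaxation follows when the reticulum pump SERCA refills the store and when the plasma membrane calcium ATPases (PMCA) and the sodium-calcium exchanger carry calcium out of the cell. Nitric oxide from the endothelium raises cyclic GMP in the muscle cell, and cyclic GMP-dependent protein kinase lowers calcium at several of these steps.

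The arrays were not alike in tissue content. Squamous epithelium markers averaged 5.18 to 5.45 on the eNOS-KO arrays, against 8.58 on WT 5 and 5.61 to 6.31 on the other WT arrays. Skeletal muscle markers averaged 11.49 on eNOS-KO 11 and 10.87 on WT 5, and lay between 8.97 and 9.99 on the other 4 arrays. Y-linked genes averaged 7.8, 4.7 and 8.0 on eNOS-KO 11, 15 and 19, and 3.5 to 3.6 on the WT arrays. They thus differed within the eNOS-KO group too, with eNOS-KO 15 nearer the WT arrays. The labels state no sex, so the sex of the animals and genotype cannot be fully told apart. Smooth muscle markers, 14 of 14 measured, averaged 9.29 to 9.60 in eNOS-KO aorta and 9.02 to 9.23 in WT aorta, bright on every array. Brown adipocyte markers, 5 of 6 measured, were brighter still, at 11.52 to 11.69 in eNOS-KO aorta and 11.33 to 11.50 in WT aorta. How much of each calcium gene's signal came from smooth muscle was not tested. Nos3, the targeted gene, read 7.13, 7.39 and 7.27 on eNOS-KO 11, 15 and 19, against 7.99, 7.88 and 7.36 on WT 2, 3 and 5, a difference of -0.48 that did not pass (limma adjusted p = 0.399). Where its probes lie relative to the deletion is not known here, so the labels are not checked by it.

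Across the 8 measured genes the genotypes differed little. None passed limma's test adjusted over 18008 genes, where 0.0278% of all genes did, and the smallest adjusted p among the 8 was 0.365. Before adjustment 1 of the 8, the exchanger gene Slc8a1, had a p under 0.05, a threshold that 11.6% of all genes met (7.86% as higher and 3.72% as lower in eNOS-KO). Slc8a1 was also the 1 gene whose arrays did not overlap between genotypes, a state that 19.5% of all genes shared (13.1% as higher and 6.47% as lower in eNOS-KO). Both counts are close to or below the background. The differences ran from -0.051 to 0.41, with 6 positive and 2 negative and a median of 0.091, against a median of 0.036 over all genes tested. Without WT 5 the median was -0.017 with 4 positive and 4 negative, and without WT 2 it was 0.14 with all 8 positive. All 8 lay above the 25th percentile of probe sets (4.38 log2) that served as the filter for dim signals.

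**Figure D1:**
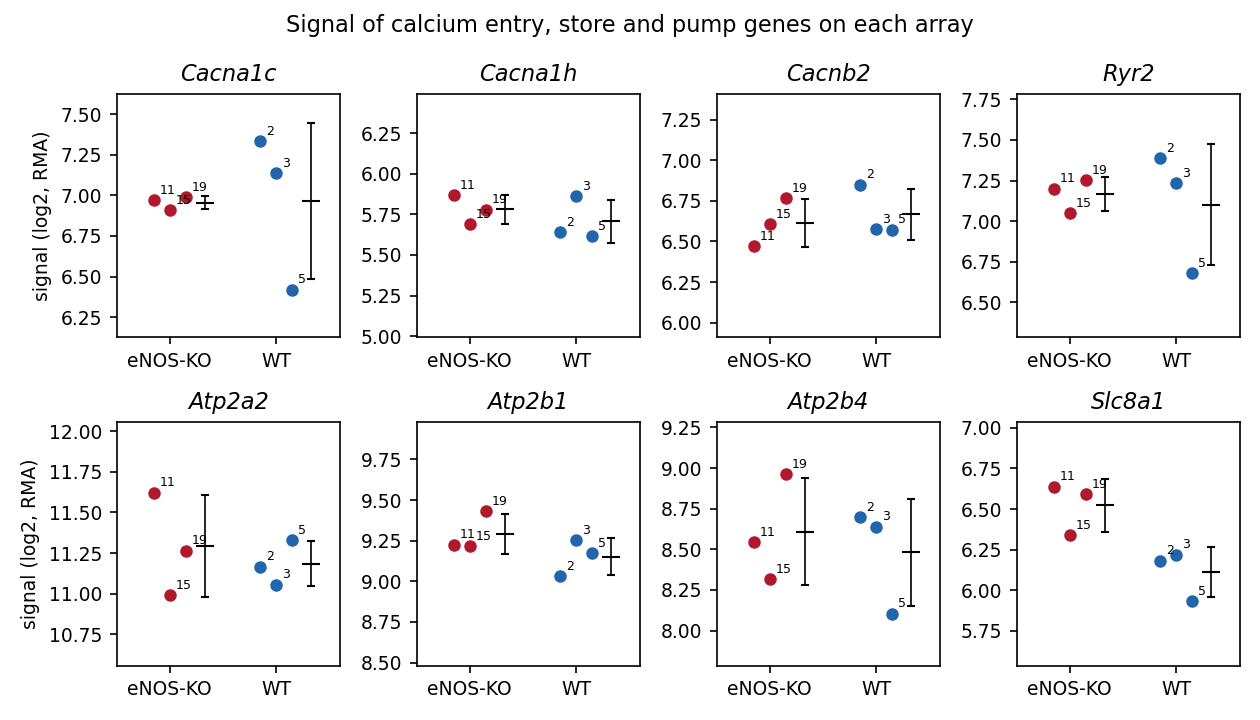
Log2 RMA signal (y axis, each panel spanning the same log2 range) of the 8 measured genes on the 3 eNOS-KO arrays (red, 11, 15 and 19) and the 3 WT arrays (blue, 2, 3 and 5), with the group mean and SD in black. The groups do not overlap for Slc8a1 and overlap for the other 7, and WT 5 lies well under the other arrays for Cacna1c and Ryr2.

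Cacna1c encodes the pore-forming subunit of the L-type channel, the main route of depolarisation-driven calcium entry in arterial muscle and the target of dihydropyridine vasodilators. It read 6.97, 6.91 and 6.99 on eNOS-KO 11, 15 and 19, against 7.33, 7.14 and 6.42 on WT 2, 3 and 5. The eNOS-KO arrays lay close together and inside the much wider WT range, which was stretched downwards by WT 5. The means were 6.96 ± 0.042 in eNOS-KO aorta and 6.96 ± 0.48 in WT aorta (SD, n = 3 each), a difference of -0.0074 with a standard error of 0.23. Its 95% interval, -0.55 to 0.53, covers anything from 0.683 to 1.45 times the WT level. Without WT 5 the difference was -0.28 and the groups no longer overlapped, with all 3 eNOS-KO arrays below WT 2 and 3, and it still did not pass (limma adjusted p = 0.346).

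Cacnb2 encodes an auxiliary beta subunit that brings the pore subunit to the membrane and shapes its gating. Its brighter probe set read 6.47, 6.61 and 6.77 in eNOS-KO aorta and 6.85, 6.57 and 6.57 in WT aorta, so the groups overlapped. The difference was -0.051 (standard error 0.14, adjusted p = 0.924). The other Cacnb2 probe set was dim, with a mean of 4.17 over the 6 arrays, under the filter level, and gave 0.16 (standard error 0.20), the opposite sign. Both intervals include 0, and no direction can be given for this gene.

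Cacna1h encodes a T-type channel, which opens at more negative voltages than the L-type channel. It read 5.87, 5.69 and 5.78 in eNOS-KO aorta, against 5.64, 5.86 and 5.62 in WT aorta. The values interleave, and the difference of 0.073 (standard error 0.12, adjusted p = 0.869) lay within the spread. This was the tightest of the 8 estimates, with an interval from -0.22 to 0.37 on the log2 scale, or 0.859 to 1.29 times the WT level.

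Ryr2 encodes the ryanodine receptor of heart, which in arterial muscle also produces the calcium sparks that open large-conductance potassium channels. It read 7.20, 7.05 and 7.25 on eNOS-KO 11, 15 and 19, against 7.39, 7.24 and 6.68 on WT 2, 3 and 5. As for Cacna1c, WT 5 was the lowest array and the eNOS-KO values sat within the WT range. The difference was 0.065 (standard error 0.20, interval -0.39 to 0.52, adjusted p = 0.930), and it was -0.15 without WT 5. Cardiac muscle markers, 10 of 10 measured, averaged 6.12 to 7.12 in eNOS-KO aorta and 6.50 to 7.01 in WT aorta, with overlap.

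Atp2a2 encodes SERCA2, the pump that returns calcium to the reticulum. It read 11.62, 10.99 and 11.27 on eNOS-KO 11, 15 and 19, against 11.17, 11.06 and 11.33 on WT 2, 3 and 5. The highest array of each genotype, eNOS-KO 11 and WT 5, was also the highest for skeletal muscle markers, and Atp2a2 was the only measured gene of the 8 with this order, which 14.2% of all genes had. Slow skeletal muscle and heart also make SERCA2, and how much of the signal came from striated muscle was not tested. The difference was 0.11 (standard error 0.18, interval -0.32 to 0.53, adjusted p = 0.864), and it was -0.056 without eNOS-KO 11.

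Calcium leaves the cell by the exchanger Slc8a1 and by the pumps Atp2b1 and Atp2b4, and the 250 bases before the annotated start of each are shown because 1 of these 3 genes of like task had arrays without overlap and the other 2 did not. They are RefSeq sequences of build GRCm38.p6, from a table of promoter windows used here in which 7 of the 10 genes matched. Capitals mark E boxes (CANNTG), GATA motifs (GATAA) and GC boxes (GGGCGG) found on both strands. The Slc8a1 window is chr17:81738388-81738637 on the minus strand, the first of 2 Atp2b1 windows is chr10:98914392-98914641 on the plus strand, and the Atp2b4 window is chr1:133753748-133753997 on the minus strand.
Slc8a1: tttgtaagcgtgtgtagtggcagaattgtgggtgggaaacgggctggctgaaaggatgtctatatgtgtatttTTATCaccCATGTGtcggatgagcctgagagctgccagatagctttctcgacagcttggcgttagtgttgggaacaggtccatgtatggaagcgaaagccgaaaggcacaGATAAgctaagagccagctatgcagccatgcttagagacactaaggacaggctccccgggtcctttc
Atp2b1: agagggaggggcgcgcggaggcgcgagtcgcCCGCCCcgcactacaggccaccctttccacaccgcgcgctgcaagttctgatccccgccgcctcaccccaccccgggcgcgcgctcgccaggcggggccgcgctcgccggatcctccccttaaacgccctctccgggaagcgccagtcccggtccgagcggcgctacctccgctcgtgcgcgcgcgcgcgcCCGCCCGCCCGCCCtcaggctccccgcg
Atp2b4: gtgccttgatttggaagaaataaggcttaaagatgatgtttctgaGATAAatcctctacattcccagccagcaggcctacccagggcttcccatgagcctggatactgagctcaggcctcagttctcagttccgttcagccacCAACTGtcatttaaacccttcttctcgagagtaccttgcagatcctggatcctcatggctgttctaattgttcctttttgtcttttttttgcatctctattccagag
The Slc8a1 window held 1 E box and 2 GATA motifs, and the Atp2b4 window held 1 of each. The Atp2b1 window held 4 GC boxes, 3 of them overlapping, and neither of the other motifs, and its base composition was 78.4% G and C, against 50.4% for Slc8a1 and 45.6% for Atp2b4. Among all 32851 promoter windows of that length, 66.2% held an E box, 22.6% GATAA and 32.7% GGGCGG. Neither a TATAAA box (12.4% of windows) nor a CArG box (1.47%) was found in the 3 windows. These letters are a description and show no binding.

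Slc8a1, the sodium-calcium exchanger that trades calcium for sodium across the plasma membrane in either direction, was 1.33 times as high in eNOS-KO aorta. It read 6.64, 6.34 and 6.59 on eNOS-KO 11, 15 and 19, against 6.18, 6.22 and 5.93 on WT 2, 3 and 5. Every eNOS-KO array lay above every WT array, with eNOS-KO 15 closest to WT 3. The means were 6.52 ± 0.16 and 6.11 ± 0.16 (SD, n = 3 each), a difference of 0.41 with a standard error of 0.14 and a 95% interval of 0.079 to 0.74. The limma p was 0.0219 before adjustment and 0.365 after adjustment over all genes, so the gene did not pass. Before adjustment it no longer met 0.05 without eNOS-KO 11 (difference 0.35), without eNOS-KO 19 (0.38) or without WT 5 (0.32), with limma adjusted p from 0.340 to 0.566 in these fits.

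Atp2b1 encodes PMCA1, the broadly expressed calcium ATPase of the plasma membrane, whose human locus is associated with blood pressure. It read 9.23, 9.22 and 9.43 in eNOS-KO aorta, against 9.03, 9.25 and 9.17 in WT aorta. WT 3 lay above eNOS-KO 11 and 15, and the difference of 0.14 (standard error 0.13, interval -0.16 to 0.43, adjusted p = 0.719) did not pass. Atp2b4, which encodes PMCA4, a pump that also binds nitric oxide synthases, read 8.54, 8.31 and 8.96 on eNOS-KO 11, 15 and 19, against 8.70, 8.64 and 8.10 on WT 2, 3 and 5. Its groups overlapped, with eNOS-KO 19 above and WT 5 below the range of the other genotype, and each spanned more than the difference of 0.13 (standard error 0.22, interval -0.40 to 0.65, adjusted p = 0.876).

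Slc8a1 was set against the pumps within each array. This is a description for which no p is given, since the genes were chosen after their values were seen. Its log2 signal relative to the mean of Atp2b1 and Atp2b4 was -2.25, -2.43 and -2.60 on eNOS-KO 11, 15 and 19, against -2.68, -2.73 and -2.70 on WT 2, 3 and 5. The exchanger stood higher relative to the pumps on all eNOS-KO arrays, by 0.28. In the same way Atp2a2 was set against Pln, which encodes phospholamban, the small protein that holds SERCA2 back until it is phosphorylated. Pln read 7.37, 6.76 and 6.45 on eNOS-KO 11, 15 and 19, against 7.27, 7.18 and 7.15 on WT 2, 3 and 5, a difference of -0.34 with overlap (limma adjusted p = 0.604). Atp2a2 minus Pln was 4.25, 4.23 and 4.82 in eNOS-KO aorta, against 3.90, 3.87 and 4.18 in WT aorta. This relative signal was higher on every eNOS-KO array, by 0.45, although eNOS-KO 15 lay only just above WT 5. Atp2a2 was highest on eNOS-KO 11 and WT 5, as the skeletal muscle markers were, whereas Pln was lowest of the WT arrays on WT 5. Whether both signals came from the same cells was not tested.

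The calcium genes were also set against the smooth muscle content of each sample, since in bulk tissue fewer cells of a type and less RNA per cell cannot be told apart. The smooth muscle markers averaged 9.60, 9.29 and 9.55 on eNOS-KO 11, 15 and 19, against 9.23, 9.02 and 9.20 on WT 2, 3 and 5, a difference of 0.33 without overlap (two-sided exact permutation p = 0.1, the smallest that 3 against 3 allows, and 0.175 adjusted over the 7 within-array measures computed). The markers did not move alike. Of the 14, 13 had a positive difference and 3 had a limma p under 0.05 before adjustment, and Myh11, the smooth muscle myosin heavy chain, differed by -0.27. Centring arrays on this marker mean takes the same 0.33 off the difference of every gene. Any gene with a smaller difference beforehand therefore turns negative by the scaling. On this scale 7 of the 8 calcium genes had a negative difference, 2 of which (Cacna1c and Cacnb2) were already negative on the deposited values. The median difference over the 8 was -0.24, where the median over all genes was -0.29. Slc8a1 stayed positive but only by 0.083, with overlap (limma adjusted p = 0.791). Relative to the markers Cacna1c stood at -2.63, -2.38 and -2.56 on eNOS-KO 11, 15 and 19, against -1.89, -1.89 and -2.78 on WT 2, 3 and 5. WT 5 again went the other way from WT 2 and 3, and the difference of -0.33 did not pass (adjusted p = 0.405). Cacnb2 (-0.38) and Cacna1h (-0.25) no longer overlapped between genotypes on this scale, both lower in eNOS-KO, a state that 26.8% of all genes shared, and neither passed (adjusted p = 0.291 and 0.429). Des, Ldb3 and Tpm2 are made by striated muscle too. Without them the markers still differed by 0.28, and the median over the 8 genes was -0.19.

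**Figure D2:**
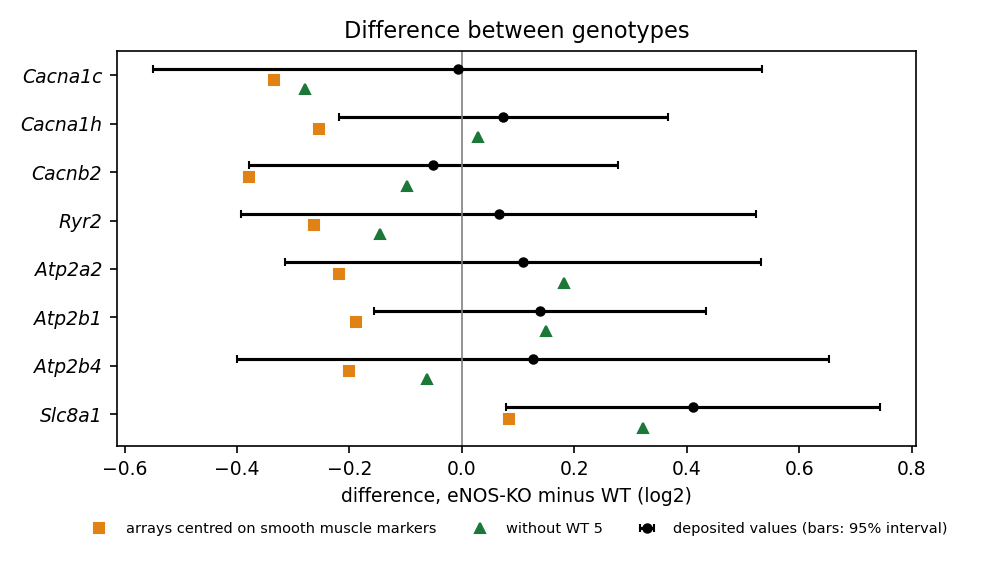
Difference between genotypes (x axis, eNOS-KO minus WT, log2) for the 8 measured genes, from the deposited values with 95% intervals (black), with arrays centred on smooth muscle markers (orange squares) and without WT 5 (green triangles). The interval excludes 0 for Slc8a1 alone. Centring on the markers shifts every gene down by the same 0.33, which leaves Slc8a1 near 0 (0.083) and the other 7 below 0.

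Markers of some other cell types stood higher in eNOS-KO aorta beside Slc8a1, although no macrophage, fibroblast or brown adipocyte marker passed the adjusted test. Brown adipocyte markers averaged 0.23 higher without overlap (smallest adjusted p = 0.234). Other lists went the other way, with endothelium markers at -0.17, lymphocyte markers at -0.16, cardiac muscle markers at -0.20 and squamous epithelium markers at -1.56. Macrophage markers averaged 8.39 to 8.82 in eNOS-KO aorta and 7.64 to 8.01 in WT aorta, and 8 of 9 had a limma p under 0.05 before adjustment, against 11.6% of all genes (smallest adjusted p = 0.129). Fibroblast markers, 7 of 7 measured, averaged 9.44 to 9.76 in eNOS-KO aorta and 8.85 to 9.37 in WT aorta, and 3 of 7 met 0.05 before adjustment (smallest adjusted p = 0.271). Within the eNOS-KO arrays, 15 was lowest for Slc8a1 (6.34) and for Y-linked genes (4.7, against 7.8 and 8.0 on 11 and 19). It was also lowest for smooth muscle (9.29), cardiac muscle (6.12) and nerve markers (7.44), but not for macrophage or fibroblast markers. The part of macrophages, fibroblasts, brown fat or sex in the Slc8a1 difference was not tested.

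A list of 54 further calcium-handling genes likewise held no gene past the adjusted test. Of the 49 that were measured, 2 had a p under 0.05 before adjustment, both higher in eNOS-KO, and 7 had arrays without overlap, all higher. All genes gave 11.6% under 0.05 and 13.1% without overlap and higher, so neither count stands clear of the background. The median difference was 0.13 and 40 of the 49 were positive, where 56.6% of all genes were. The others were not analysed here.

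Among voltage-gated channel subunits 1 of 12 met 0.05 before adjustment. Cacna1g, another T-type pore subunit, read 4.92, 5.07 and 4.70 in eNOS-KO aorta, against 4.30, 4.72 and 4.47 in WT aorta. That is 0.40 higher (standard error 0.16, adjusted p = 0.406), with eNOS-KO 19 just under WT 3. With arrays centred on smooth muscle markers it was 0.073, and without eNOS-KO 11, eNOS-KO 15, WT 2 or WT 5 it was 0.30 to 0.39 and no longer met 0.05 before adjustment (limma adjusted p from 0.383 to 0.711). The signal is close to the dim filter level, so the size of the difference is uncertain.

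Among plasma membrane pumps, partners and exchangers 1 of 8 met 0.05 before adjustment. Bsg encodes basigin, a membrane protein that assembles with PMCA pumps and with lactate transporters, and read 11.85, 11.93 and 11.81 in eNOS-KO aorta, against 11.44, 11.56 and 11.70 in WT aorta. The groups did not overlap, and the difference was 0.30 (standard error 0.12, adjusted p = 0.415). It was -0.031 with arrays centred on smooth muscle markers. With any 1 of eNOS-KO 11, 15 and 19, WT 2 and WT 3 left out, it was 0.23 to 0.32. In these fits Bsg no longer met 0.05 before adjustment (limma adjusted p from 0.506 to 0.711), nor with repeated quantile normalization (0.26).

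In the store-operated entry group, where STIM proteins sense an empty store and open ORAI channels, 0 of 5 met 0.05 in limma before adjustment. Orai3 came closest, at 8.30, 8.68 and 8.47 in eNOS-KO aorta against 8.15, 8.30 and 8.14 in WT aorta, without overlap (difference 0.28, adjusted p = 0.480). Stim1, at 0.16, had no overlap either. Among store pumps and binders 0 of 8 met it, with the smallest p for Calr, the store calcium binder calreticulin, at 11.01, 11.06 and 11.33 in eNOS-KO aorta and 10.72, 10.86 and 10.94 in WT aorta (difference 0.30, adjusted p = 0.463).

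Release channels and their regulators had 0 of 11 under 0.05 in limma before adjustment, led by Fkbp1b, which encodes a protein bound to the ryanodine receptor, at 0.44 (adjusted p = 0.517). Of the 3 mitochondrial uniporter genes measured, 0 met 0.05 in limma before adjustment. Smdt1, an essential regulatory subunit of the uniporter, differed by 0.32 without overlap (adjusted p = 0.480). Camk2d and Camk2g, the calmodulin kinase II genes of smooth muscle, differed by 0.028 and 0.14, and neither met it.

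**Figure D3:**
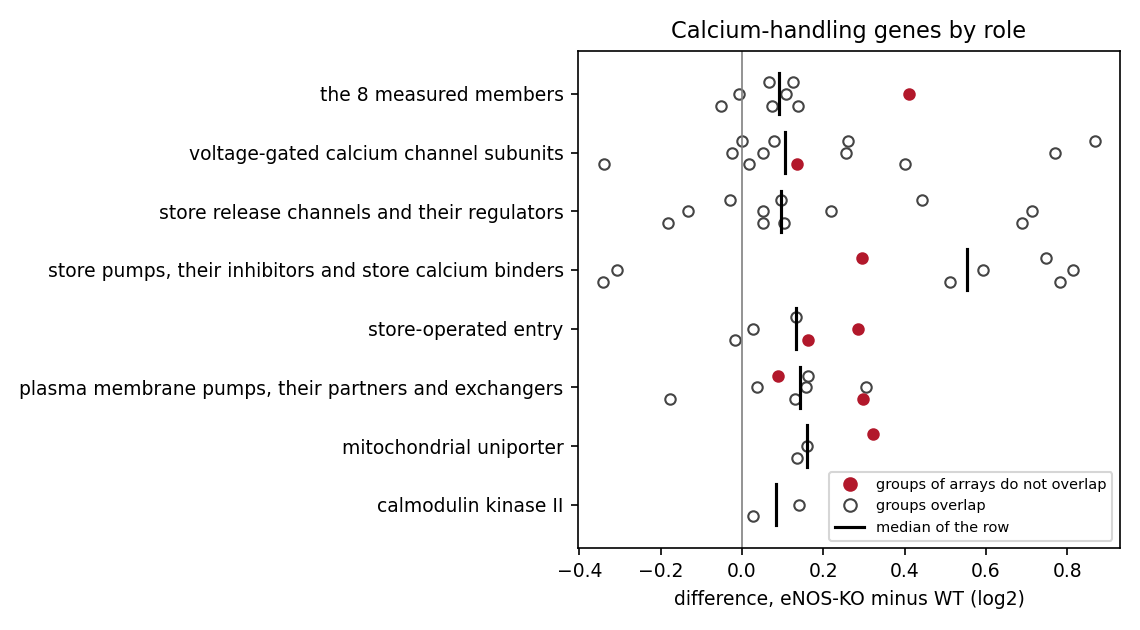
Difference between genotypes (x axis, eNOS-KO minus WT, log2) of the 8 measured members and of 49 further calcium-handling genes, 1 row per role, with the median of each row as a black bar. Filled red points are genes whose eNOS-KO and WT arrays do not overlap (1 member and 7 further genes, all higher in eNOS-KO), and the most positive values belong to genes with wide spread such as Cacna1s (0.87) and Sln (0.82).

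Most of the widest differences of the list belonged to isoforms of striated muscle, which was seen after the values were examined. Atp2a1, the fast skeletal muscle SERCA1, read 12.76, 11.70 and 11.89 on eNOS-KO 11, 15 and 19, against 11.53, 10.71 and 12.32 on WT 2, 3 and 5. Ryr1, the skeletal muscle ryanodine receptor, read 11.10, 9.36 and 9.44 in eNOS-KO aorta, against 8.99, 8.33 and 10.43 in WT aorta. For both, the highest arrays were eNOS-KO 11 and WT 5, as for the skeletal muscle markers (11.49 and 10.87). Of the 49 genes 12 had this order, or 24.5%, against 14.2% of all genes, among them the skeletal L-type subunit Cacna1s, the calsequestrins Casq1 and Casq2, and sarcolipin (Sln), a SERCA inhibitor of striated muscle. Their differences (Cacna1s 0.87, Casq1 0.75, Casq2 0.78, Sln 0.82, Atp2a1 0.59 and Ryr1 0.71) did not pass, with adjusted p from 0.589 to 0.742. Without both arrays the differences were 0.78 for Cacna1s, 0.83 for Casq1, 0.90 for Casq2, 1.38 for Sln, 0.67 for Atp2a1 and 0.74 for Ryr1. The skeletal muscle markers then differed by 0.51, against 0.55 with all arrays. This fit drops the highest array of each genotype at once, so it cannot show how the differences depend on either array alone. Without WT 5 alone, the highest WT array for both, the difference was 1.33 for Cacna1s and 1.42 for Casq1. Setting aside eNOS-KO 11 instead, the remaining eNOS-KO arrays, 15 and 19, lay near the WT mean. They read 9.50 and 9.12 for Casq1, against a WT mean of 9.15, and 8.55 and 8.74 for Cacna1s, against 8.32. The skeletal muscle markers averaged 9.99 and 9.87 on them, against a WT mean of 9.90. With all arrays kept, eNOS-KO 15 and 19 lay inside the WT range for each of these genes.

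WT 5 was the lowest WT array for 6 of the 8 members, but for Cacnb2 it was level with WT 3, and for the pumps Atp2a2 and Atp2b1 it was not the lowest. It was so for 22 of the 49 further genes (44.9%) and for 47.7% of all genes, and eNOS-KO 15 was the lowest eNOS-KO array for 7 of the 8, against 28.5% of all genes. Slc24a3, a potassium-dependent sodium-calcium exchanger, read 9.16, 9.23 and 9.18 in eNOS-KO aorta, against 9.40, 9.55 and 8.24 on WT 2, 3 and 5. The values of Mrvi1, now Irag1, which carries the cyclic GMP kinase signal to the inositol trisphosphate receptor, were 7.18, 7.05 and 7.14 in eNOS-KO aorta, against 7.23, 7.24 and 6.74 in WT aorta. Both, picked after their values were seen, show the order of Cacna1c and Ryr2. In each of these 4 genes the eNOS-KO arrays lay below WT 2 and above WT 5. Without WT 5, 12 of the 49 genes had a limma p under 0.05 before adjustment, 10 higher and 2 lower in eNOS-KO, and 14.9% of all genes did. Those higher included Atp2a1 (0.99), Casq2 (1.34) and Sln (1.76), for which WT 5 was the highest WT array. Those lower were Slc24a3 (-0.28) and Itpr2 (-0.33), an inositol trisphosphate receptor, for which WT 5 was the lowest. None passed after adjustment (smallest adjusted p = 0.195). Without both eNOS-KO 11 and WT 5 the count was 14, 13 higher and 1, Pln (-0.62), lower, beside 15.7% of all genes, and again none passed (smallest adjusted p = 0.0828, for Casq2).

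**Figure D4:**
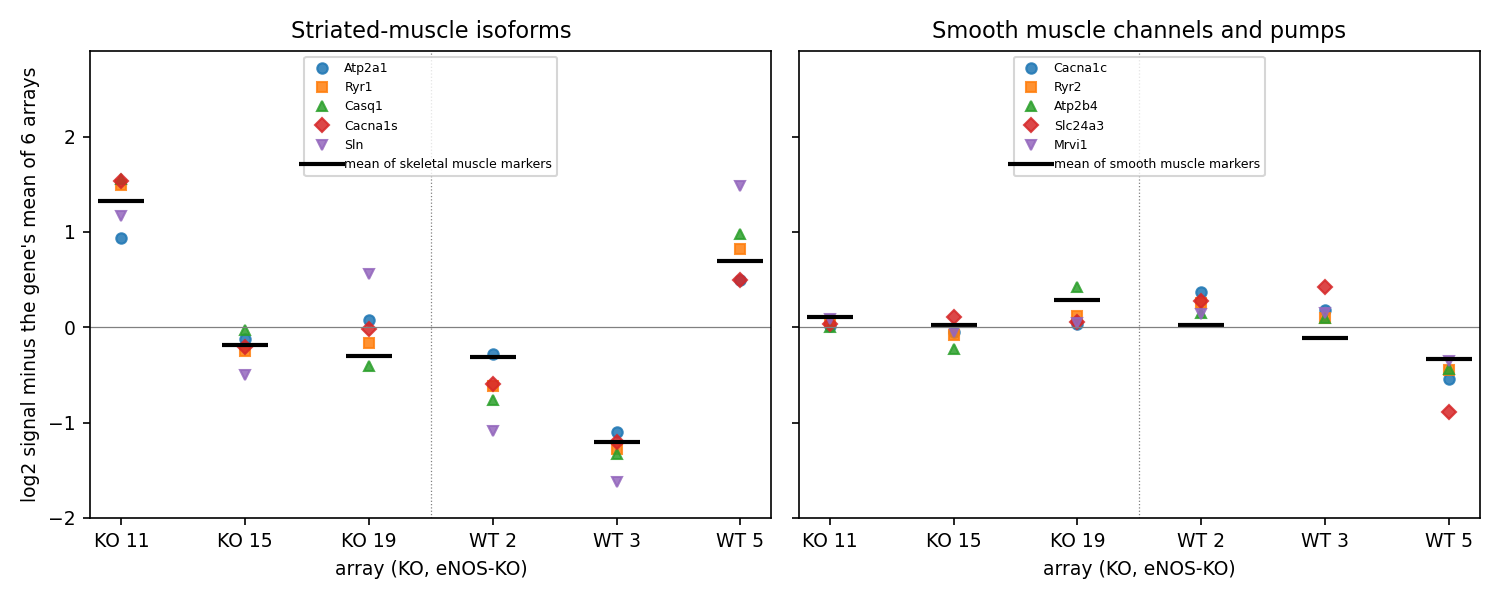
Log2 signal of each gene minus its own mean over the 6 arrays (y axis) by array (x axis, eNOS-KO left of WT), for 5 striated muscle isoforms with the skeletal muscle marker mean as a bar (left) and for 5 channels, pumps and regulators of smooth muscle with the smooth muscle marker mean, taken without Des, Ldb3 and Tpm2, as a bar (right). The genes were chosen after their values were seen. The left group is highest on eNOS-KO 11 and WT 5, and the right group is lowest on WT 5.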

How the data were processed

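The deposited table holds log2 values for 41345 probe sets on 6 arrays. The submitters' processing notes name RMA and Affymetrix Expression Console 1.3.1, and per the labels 300 ng of total RNA was used. These log2 values were taken as the authors deposited them. Of the probe sets 23525 carried 1 symbol in the platform annotation. The brightest per gene was kept, and means under the 25th percentile (4.38) were left out, leaving 18008 genes.

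Genotypes were compared with limma 3.58.1 in R 4.3.3 (eBayes, two-sided, no covariates, Benjamini-Hochberg over 18008 genes at 0.05). The number of arrays limits precision (median standard error 0.156), and array medians were 5.55 to 5.59 in eNOS-KO and 5.61 to 5.68 in WT. Exact permutation was run on 7 within-array measures, and its p is given for the smooth muscle marker mean alone. Members and lists were chosen with earlier results of these data known. Of the 54 further genes, those with an unadjusted p under 0.05 or the smallest p of a role are named, and others were chosen after their values were seen. Tested on simulated data for 18008 genes, the fit found 8% of 1.5-fold changes, 58% of 2-fold, 88% of 4-fold and 98% of 8-fold changes, beside 6 false calls. Alternatives changed the dim filter, variance model, probe set rule, scaling, weights and arrays used.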

Additional observations from a re-analysis of the deposited data

How the results depend on the processing

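No member passed the adjusted limma test under any of 16 alternatives (smallest adjusted p = 0.282, for Slc8a1 with arrays centred on their medians), and Slc8a1 stayed positive under all 16 (0.083 to 0.50). No paired analysis was possible because the sample numbers of the genotypes are not shared. The count of 1 member under 0.05 before adjustment became 0 with smooth muscle centring, with or without Des, Ldb3 and Tpm2, with array weights, and without eNOS-KO 11 and WT 5 together (0 to 1 when single arrays were left out). Members without overlap numbered 2 with smooth muscle centring (Cacna1h and Cacnb2, both lower in eNOS-KO and without Slc8a1, beside 27.7% of all genes), 2 without both arrays (beside 48% of all genes) and 1 to 3 over single arrays (beside 26.4% to 35.3%). The median moved to -0.24 with smooth muscle centring and to -0.19 without the striated markers, was -0.044 with array weights (4 genes positive and 4 negative), and ran from -0.017 to 0.15 over single arrays. The count of 2 further genes, both higher in eNOS-KO, became 1 with the 50th percentile filter (beside 12.7% of all genes), 4 with median centring (13.4%), 1 with repeated quantile normalization (8.88%), 7 with array weights (6 higher, 1 lower, 19%), 14 without both arrays (13 higher, 1 lower, 15.7%) and 0 to 12 over single arrays (7.53% to 14.9%). With smooth muscle centring it was 4 (20.6%) or, without the striated markers, 5 (17.5%), all lower in eNOS-KO. Smooth muscle centring lowers the difference of every gene by the same 0.33, or by 0.28 without the striated markers. The lower direction and the sign changes it gives below therefore follow from the scaling. Over all genes 112 were higher and 3593 lower under 0.05 with the first of these scalings. The cause of the other changes in the count was not tested. Signs turned for differences that had not passed. With smooth muscle centring, and then without the striated markers, these were Cacna1h (-0.25, -0.21), Ryr2 (-0.26, -0.22), Atp2a2 (-0.22, -0.17), Atp2b1 (-0.19, -0.14) and Atp2b4 (-0.20, -0.16), and Bsg (-0.031) with the first alone. Median centring turned Cacna1c (0.058) and Cacnb2 (0.015), array weights turned Ryr2 (-0.15) and Atp2b4 (-0.15), and the mean of both Cacnb2 probe sets (0.055) and the dimmer one alone (0.16) turned Cacnb2. Without eNOS-KO 11 and WT 5 together Cacna1h was -0.016, Ryr2 -0.16 and Atp2b4 -0.030. Leaving out single arrays gave Cacna1c -0.28 to 0.18, Cacnb2 -0.13 to 0.041, Ryr2 -0.15 to 0.21, Atp2a2 -0.056 to 0.26 and Atp2b4 -0.062 to 0.27. Leaving out both arrays together, and the marker mean without Des, Ldb3 and Tpm2, were chosen after seeing the data. Signals near the dim filter, as for Cacna1g, limit the size of a difference.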
